A study of Mus musculus with 4 samples.

Results

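The 10 genes described here code for enzymes of glycolysis: Hk1 and Hk2 (hexokinases), Pfkp (phosphofructokinase, platelet type), Aldoa and Aldoc (aldolases), Tpi1 (triosephosphate isomerase), Gapdh (glyceraldehyde-3-phosphate dehydrogenase), Pgk1 (phosphoglycerate kinase), Pkm (pyruvate kinase, muscle type) and Ldha (lactate dehydrogenase A). They were taken by name from 41862 gene columns, and each of the 10 had counts. Single cells of the mouse central nervous system were profiled with inDrops v3, a droplet method in which each captured mRNA is counted by a unique molecular identifier (UMI). The mice were C57BL6 animals with Aldh1l1CreERT2-TdTomato, in which a Cre recombinase under the Aldh1l1 promoter, active in astrocytes, turns on a red reporter. Reporter-positive cells that carried surface LAMP1, a lysosomal membrane protein, were divided by surface TRAIL, a ligand of death receptors. The series compares the RNA of TRAIL+ and TRAIL- cells of this gate in naive mice and in mice with peak EAE (experimental autoimmune encephalomyelitis), a mouse model of autoimmune inflammation of the central nervous system.

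The 4 groups, each read from 1 library, were TRAIL- naive, TRAIL+ naive, TRAIL- EAE and TRAIL+ EAE, from 3 naive mice and 3 mice that had received the MOG35-55 peptide in CFA. All 4 carried the same reporter, and whether mice were pooled for a library is not stated in the labels. With 1 library a group there is no replicate check, and no p-value is given. Intervals are exact 95% intervals (Poisson for a level, Clopper-Pearson for a share or a ratio of counts), take UMIs as independent and cover counting error only. Of 12987 listed barcodes, 7899 had at least 500 UMIs and at most 20% mitochondrial UMIs. After removal of 77 called doublets, 2218, 2225, 1569 and 1810 barcodes were used in the order above, with median depths of 947, 1504, 1178 and 1904.5 UMIs. Among the kept barcodes, 182 of 7716 distinct barcode names occurred in more than 1 library.

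Cell classes were built without the 10 genes and are written "-like", since they rest on marker genes alone. The labels call all samples astrocytes, but for most barcodes the markers went against that. Astrocyte-like barcodes numbered 34, 139, 3 and 8 in the 4 libraries, while microglia-like barcodes numbered 310, 1885, 295 and 1577. The TRAIL- libraries held mostly endothelial-like barcodes (1147 naive, 493 EAE) and pericyte or smooth muscle-like barcodes (500 and 456, called pericyte-like below). Monocyte-like barcodes numbered 19, 21, 224 and 131, and choroid plexus-like barcodes 90 in TRAIL- naive and 41 in TRAIL- EAE. The monocyte-like cluster was led by Lyz2, Chil3, Arg1, Plac8 and Cd74, with 3 listed monocyte markers among its top 10 genes. H2-Eb1 and H2-Ab1, genes of antigen presentation, were also in that top 10, and whether the class joins several cell types was not tested. The astrocyte-like barcodes of both naive libraries had UMIs of 20 of 20 astrocyte markers, and the microglia-like barcodes of every library had UMIs of 15 of 15 microglia markers. Pericyte-like barcodes had UMIs of 13 of 20 astrocyte markers in TRAIL- naive and 15 of 20 in TRAIL- EAE, with summed levels of 15700 and 14689 CPM (UMIs per 1000000 UMIs of the class) against 38162 and 50690 in the naive astrocyte-like barcodes, and the astrocyte genes Gjb6, Mlc1 and Slc6a11 were at 0 in them in both libraries.

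Glycolysis splits glucose into pyruvate and yields ATP without oxygen, and lactate dehydrogenase turns pyruvate into lactate. Several steps are carried out by isoenzymes from separate genes that are used by different cells. In brain, aldolase C is a long-known marker of astrocytes and of some Purkinje cells, hexokinase 1 is the common brain hexokinase, and hexokinase 2 is the form of insulin-responsive and growing cells. Many glycolysis genes are targets of the hypoxia-inducible factors, whose core recognition letters are ACGTG or GCGTG.

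Promoter sequences are shown for the isoenzyme pairs that set the cell classes apart, and for Pgk1 and Ldha, whose EAE over naive ratios in TRAIL- microglia-like barcodes were the largest among the members abundant enough to be compared. They run from 250 bases before to 50 bases after the annotated start, read 5′ to 3′ on the gene's strand, from RefSeq with build GRCm38.p6. Capitals mark ACGTG or GCGTG, or the same letters on the other strand (CACGT or CACGC), with overlapping matches joined in 1 stretch.

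Hk1 (the second of 2 listed starts), chr10:62340372-62340671, minus strand: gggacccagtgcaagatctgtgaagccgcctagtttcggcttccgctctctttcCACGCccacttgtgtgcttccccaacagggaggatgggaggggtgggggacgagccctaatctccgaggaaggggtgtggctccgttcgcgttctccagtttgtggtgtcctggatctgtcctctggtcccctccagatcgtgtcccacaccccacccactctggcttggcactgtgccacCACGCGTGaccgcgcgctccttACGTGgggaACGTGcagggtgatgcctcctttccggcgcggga

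Hk2, chr6:82774405-82774704, minus strand: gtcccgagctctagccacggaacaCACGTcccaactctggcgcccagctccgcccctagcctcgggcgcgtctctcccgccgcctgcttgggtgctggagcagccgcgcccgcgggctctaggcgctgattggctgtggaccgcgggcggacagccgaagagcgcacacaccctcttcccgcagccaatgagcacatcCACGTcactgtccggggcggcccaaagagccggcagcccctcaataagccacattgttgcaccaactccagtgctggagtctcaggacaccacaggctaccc

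Aldoa (the second of 3 listed starts), chr7:126799205-126799504, minus strand: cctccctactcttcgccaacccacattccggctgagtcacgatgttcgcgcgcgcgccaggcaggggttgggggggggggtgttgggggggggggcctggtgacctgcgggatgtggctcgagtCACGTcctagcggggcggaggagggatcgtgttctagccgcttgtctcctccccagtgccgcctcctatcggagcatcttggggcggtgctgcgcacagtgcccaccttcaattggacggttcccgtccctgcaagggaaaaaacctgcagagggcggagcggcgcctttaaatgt

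Aldoc (the first of 2 listed starts), chr11:78322823-78323122, plus strand: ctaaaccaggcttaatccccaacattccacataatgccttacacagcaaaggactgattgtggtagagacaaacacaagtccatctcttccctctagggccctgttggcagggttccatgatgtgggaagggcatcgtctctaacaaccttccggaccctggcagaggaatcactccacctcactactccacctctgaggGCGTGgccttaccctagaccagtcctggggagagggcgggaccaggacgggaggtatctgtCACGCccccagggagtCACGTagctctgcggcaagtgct

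Pgk1, chrX:106186850-106187149, plus strand: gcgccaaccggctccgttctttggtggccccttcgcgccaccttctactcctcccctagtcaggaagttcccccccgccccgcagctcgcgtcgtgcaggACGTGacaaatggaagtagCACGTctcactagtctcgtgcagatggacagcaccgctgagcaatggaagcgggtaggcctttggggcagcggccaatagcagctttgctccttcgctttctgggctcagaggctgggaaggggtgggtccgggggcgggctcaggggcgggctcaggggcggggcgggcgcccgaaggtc

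Ldha (the first of 2 listed starts), chr7:46845554-46845853, plus strand: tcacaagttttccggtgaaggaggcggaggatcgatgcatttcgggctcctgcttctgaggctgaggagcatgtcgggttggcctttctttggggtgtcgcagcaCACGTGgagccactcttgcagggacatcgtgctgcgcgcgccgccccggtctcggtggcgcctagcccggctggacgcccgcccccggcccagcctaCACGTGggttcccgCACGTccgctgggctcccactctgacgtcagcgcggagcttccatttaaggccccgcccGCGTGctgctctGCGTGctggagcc

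All 10 genes matched the RefSeq table, with 16 listed starts. The letters occurred in 12 of the 16 start windows and in at least 1 window of 9 of the 10 genes, the exception being Tpi1. Among all 32851 promoters of this length, 43.8% held them, and 46.7% of 27025 genes held them in at least 1 window. The 10 genes had more listed starts per gene than the table as a whole, so the shares by gene are not like for like. The window shown for Ldha had 7 matches in 5 stretches and that for Hk1 had 5 in 4, since overlapping matches are counted separately. That for Aldoc had 3, those for Hk2 and Pgk1 had 2 each, and that for Aldoa had 1. For Hk1, Aldoa, Aldoc and Ldha, which have several listed starts, no other window had more matches than the one shown. The second listed starts of Aldoc and Ldha had 1 and 2 matches, and the third of Aldoa had 1. Of the start windows not shown, those of the first listed starts of Hk1, Aldoa and Pkm did not hold these letters. A match describes the letters and is not a binding site.

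Levels are given in CPM of a class in 1 library. Each captured mRNA is counted once at its 3′ end whatever its length, so no length correction was made, but capture can differ between genes. Levels of Gapdh and Aldoa beside other genes are uncertain, since 73.6% and 25.8% of the UMIs of each gene and its near copies stood in the columns of the copies. In the GRCm38 annotation, Hk1 lies on chr10:62268855-62379908 (minus strand) and Hk2 on chr6:82725025-82774454 (minus strand). Aldoc lies on chr11:78322968-78327781 (plus strand), and Aldoa has an entry on chr7:126795234-126800751 and another on chr7:126800790-126809108 (both minus strand). Pfkp is on chr13:6579768-6648777 (minus), Tpi1 on chr6:124810586-124814296 (minus), Gapdh on chr6:125161715-125166467 (minus), Pgk1 on chrX:106187100-106203699 (plus), Pkm on chr9:59656368-59679375 (plus) and Ldha on chr7:46841475-46855627 (plus).

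**Figure D1:**
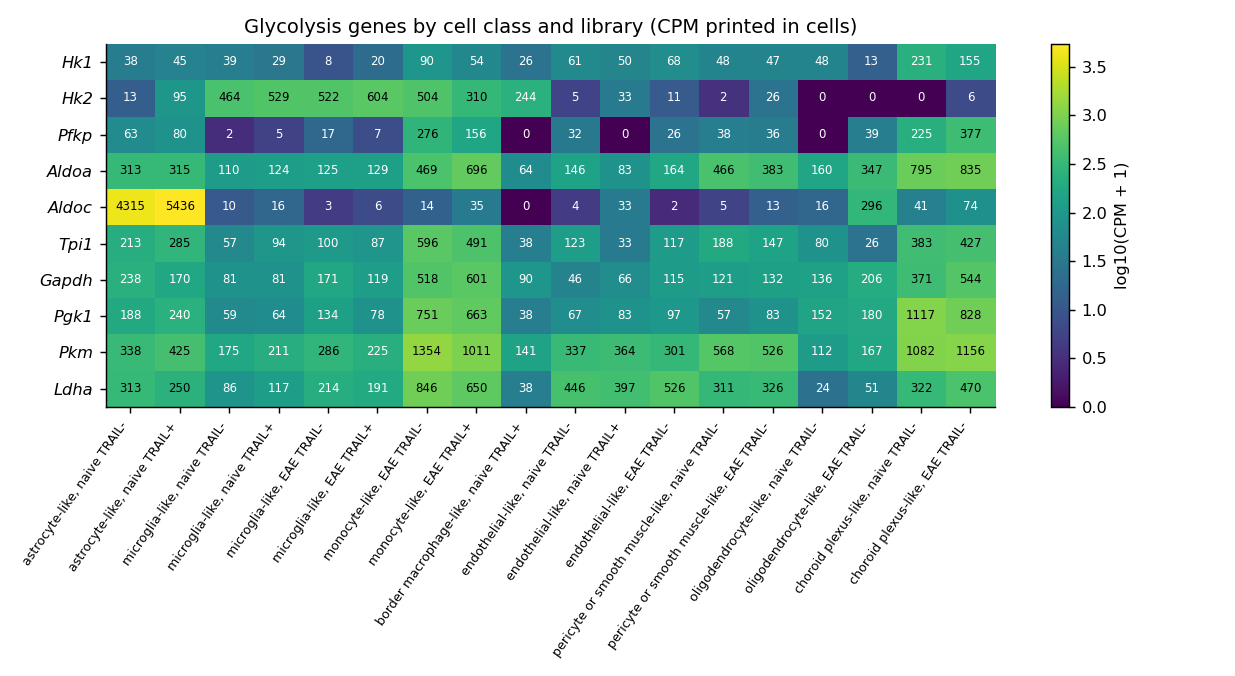
Levels (CPM, printed in each cell and coloured on a log scale) of the 10 genes in each class of at least 30 barcodes, by library. Aldoc stands at 4315 and 5436 CPM in the astrocyte-like columns, Hk2 lies between 464 and 604 CPM in the microglia-like columns, and the monocyte-like and choroid plexus-like columns are high for most other genes.

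Hexokinase traps glucose in the cell as glucose-6-phosphate. Most Hk1 plus Hk2 UMIs were of Hk2 in microglia-like, monocyte-like and border macrophage-like barcodes. In endothelial-like and choroid plexus-like barcodes most were of Hk1, while astrocyte-like barcodes, described below, did not follow such a split. In microglia-like barcodes Hk2 stood at 464 CPM (interval 406 to 528) in TRAIL- naive, 529 (503 to 555) in TRAIL+ naive, 522 (465 to 584) in TRAIL- EAE and 604 (578 to 632) in TRAIL+ EAE. Monocyte-like barcodes had 504 CPM (449 to 565) of Hk2 in TRAIL- EAE and 310.2 (256 to 372) in TRAIL+ EAE, and border macrophage-like barcodes of TRAIL+ naive had 244 (147 to 381). All 3 myeloid classes were thus high for Hk2 wherever a library held at least 50 of their barcodes, and the microglia-like levels of the 4 libraries lay within 1.5-fold of each other.

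The share of microglia-like barcodes with an Hk2 UMI was 39.7%, 47.5%, 49.2% and 55.2% in the 4 libraries. Thinned to 500 UMIs a barcode, it was 19.4%, 21.9%, 20.3% and 22.2%. Endothelial-like barcodes of TRAIL- naive gave 0.436% and 0.349%, at a median depth of 894 UMIs against 1529 in the microglia-like barcodes there. At equal depth the microglia-like shares thus differed little between libraries.

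Hk2 was near 0 in vascular and epithelial classes. Endothelial-like barcodes held 5 Hk2 UMIs among 1147 barcodes in TRAIL- naive (4.55 CPM, interval 1.48 to 10.6) and 6 among 493 in TRAIL- EAE (11.0 CPM, 4.02 to 23.9). Oligodendrocyte-like barcodes held none in either TRAIL- library, and choroid plexus-like barcodes held none in TRAIL- naive (3 UMIs would be 8.77 CPM) and 1 in TRAIL- EAE. Pericyte-like barcodes had 1 Hk2 UMI in TRAIL- naive and 12 in TRAIL- EAE, of which 8 came from 1 barcode. None of these intervals overlapped those of the microglia-like barcodes.

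Hk1, the general hexokinase, had another order of classes. It was highest in choroid plexus-like barcodes, at 231 CPM (183 to 288) in TRAIL- naive and 155 (100.0 to 228) in TRAIL- EAE. Monocyte-like barcodes had 89.7 (67.2 to 117) in TRAIL- EAE and 53.9 (32.9 to 83.3) in TRAIL+ EAE, and endothelial-like barcodes 61.0 (47.3 to 77.5) and 67.6 (47.6 to 93.2) CPM in the TRAIL- libraries of naive and EAE mice. Pericyte-like barcodes had 47.5 and 46.8 CPM in the same libraries, and astrocyte-like barcodes 37.5 and 45.0 CPM in TRAIL- and TRAIL+ naive, from 3 and 9 UMIs. Among monocyte-like, endothelial-like, pericyte-like and astrocyte-like barcodes all Hk1 intervals overlapped, and no order is given between them. In TRAIL- EAE the choroid plexus-like and monocyte-like intervals also overlapped. Microglia-like Hk1 was at 38.7, 29.3, 8.47 and 19.6 CPM in the 4 libraries, the third of them from 5 UMIs.

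As a share of Hk1 plus Hk2 UMIs, which does not depend on scaling, Hk2 made up 92.3% (88.2 to 95.3), 94.8% (93.6 to 95.8), 98.4% (96.3 to 99.5) and 96.9% (96.0 to 97.6) in the microglia-like barcodes of the 4 libraries in order. Monocyte-like barcodes had 84.9% (80.7 to 88.5) in TRAIL- EAE and 85.2% (78.1 to 90.7) in TRAIL+ EAE. Endothelial-like barcodes had 6.94% (2.29 to 15.5) in TRAIL- naive and 14.0% (5.30 to 27.9) in TRAIL- EAE, and choroid plexus-like barcodes of TRAIL- naive had 0 of 79 UMIs (upper limit 4.56%). The myeloid intervals lay above those of these endothelial-like and choroid plexus-like barcodes. In TRAIL+ naive, 56 endothelial-like barcodes held 5 hexokinase UMIs, and their share of 40.0% (5.27 to 85.3) overlapped the monocyte-like intervals. In pericyte-like barcodes the share was 4.76% (0.120 to 23.8) in TRAIL- naive and 35.3% (19.7 to 53.5) in TRAIL- EAE, and 15.4% in the latter when barcodes with more UMIs of another class's markers were left out.

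**Figure D2:**
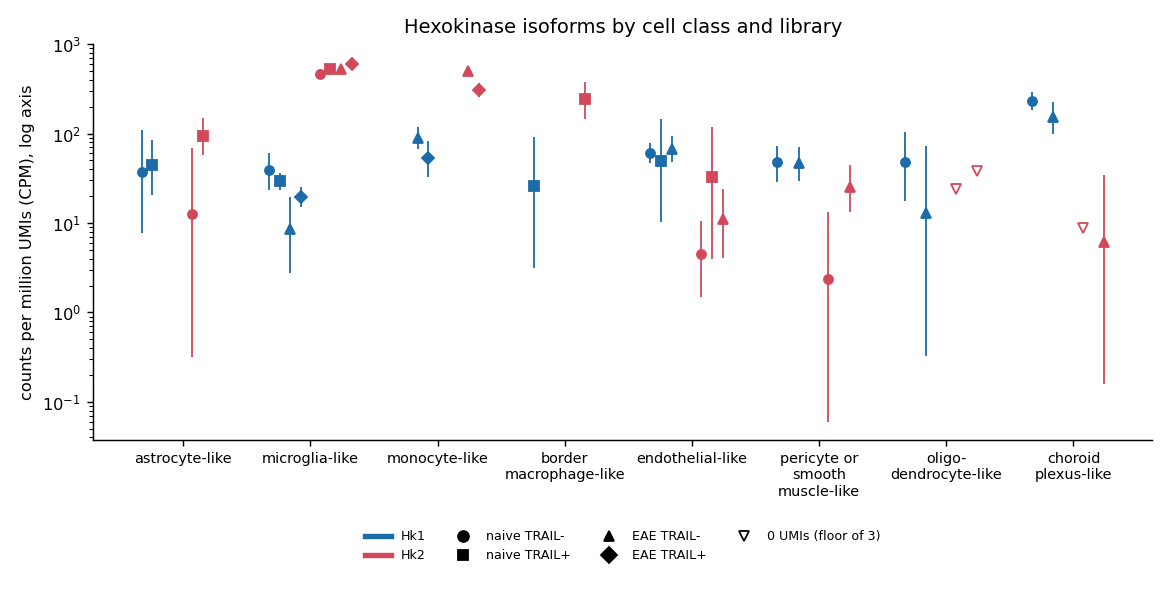
Levels of Hk1 (blue) and Hk2 (red) in CPM on a log axis by class, with 1 point per library (symbol) and exact 95% Poisson bars for classes of at least 30 barcodes, and open triangles at the floor of 3 UMIs where no UMI was found. Hk2 lies above Hk1 in the microglia-like, monocyte-like and border macrophage-like classes, at 244 CPM or more, and below it in the endothelial-like, pericyte-like and choroid plexus-like classes.

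Over all used barcodes, Hk2 made up 55.1% of hexokinase 1 and 2 UMIs in TRAIL- naive, 93.2% in TRAIL+ naive, 81.3% in TRAIL- EAE and 95.9% in TRAIL+ EAE. Microglia-like barcodes carried 91.6%, 96.6%, 49.2% and 92.2% of the Hk2 UMIs of these libraries, and monocyte-like barcodes another 47.6% in TRAIL- EAE. In such whole-library values, fewer cells of a type and less RNA per cell cannot be told apart.

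Astrocyte-like barcodes of TRAIL- naive gave too few hexokinase UMIs to rank the isoforms, with 3 of Hk1 and 1 of Hk2. In TRAIL+ naive they held 9 of Hk1 and 19 of Hk2, so Hk2 made up 67.9% (47.6 to 84.1) at 95.1 (57.3 to 149) CPM. The summed microglia markers in these same barcodes were 6983 CPM, with 15 of 15 present, against 38505 CPM in microglia-like barcodes of that library and 1363 CPM in the astrocyte-like barcodes of TRAIL- naive. Their part in the astrocyte-like Hk2 value was not tested.

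Phosphofructokinase commits sugar to glycolysis. Pfkp, its platelet-type subunit, stood at 225 (178 to 281) and 377 (288 to 484) CPM in choroid plexus-like barcodes of TRAIL- naive and TRAIL- EAE. Monocyte-like barcodes had 276 (235 to 322) in TRAIL- EAE and 156 (119 to 202) in TRAIL+ EAE, and astrocyte-like barcodes 62.5 and 80.1 CPM in the naive libraries, from 5 and 16 UMIs. Microglia-like barcodes were low, at 2.04, 4.50, 16.9 and 6.86 CPM in the 4 libraries, below every interval of the choroid plexus-like and monocyte-like barcodes. The other phosphofructokinase genes had other patterns: Pfkm, the muscle type, stood at 325 and 175 CPM in the naive astrocyte-like barcodes and at 4.07, 3.54, 0 and 1.87 in microglia-like barcodes, while Pfkl, the liver type, was at 65.1, 87.5, 83.0 and 73.9 CPM in the latter.

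Aldolase splits fructose-1,6-bisphosphate into a pair of triose phosphates. Aldoc was the most abundant of the 10 genes in astrocyte-like barcodes, at 4315 CPM (3872 to 4796, 345 UMIs in 24 of 34 barcodes) in TRAIL- naive and 5436 CPM (5117 to 5769, 1086 UMIs in 121 of 139 barcodes) in TRAIL+ naive. The TRAIL+ level was the higher and the intervals did not overlap, but the ratio was under 1.5-fold and the spread between mice is not known. The class joins clusters 13 and 15, and in cluster 13 alone, with 30 barcodes in TRAIL- naive and 132 in TRAIL+ naive, Aldoc stood at 3201 and 5196 CPM, a ratio past 1.5-fold. Cluster 13 held 200 of the 345 Aldoc UMIs of TRAIL- naive and 911 of the 1086 of TRAIL+ naive. The EAE libraries had 3 and 8 astrocyte-like barcodes, too few for a comparison with naive.

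In microglia-like, vascular and choroid plexus-like barcodes Aldoc was scarce. Microglia-like barcodes had 10.2 (3.31 to 23.8), 16.1 (11.9 to 21.2), 3.39 (0.410 to 12.2) and 6.24 (3.81 to 9.63) CPM in the 4 libraries. In the TRAIL- libraries of naive and EAE mice, endothelial-like barcodes had 3.64 and 1.83 CPM, pericyte-like barcodes 4.75 and 12.8, and choroid plexus-like barcodes 40.9 (22.4 to 68.7) and 74.2 (38.3 to 129.6). None of these intervals met those of the astrocyte-like barcodes.

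Counted per barcode, 87.1% of astrocyte-like barcodes of TRAIL+ naive had an Aldoc UMI, and 80.6% after thinning every barcode to 500 UMIs. Microglia-like barcodes of the same library, a class that should lack Aldoc, gave 2.23% and 0.690%, at a median depth of 1552 UMIs against 1249 in the astrocyte-like barcodes. Shares at or below the microglia-like value are read as background. Summed astrocyte markers were likewise at 393, 394, 420.3 and 401 CPM in the microglia-like barcodes of the 4 libraries, far below the naive astrocyte-like barcodes.

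Aldoc was not confined to the astrocyte-like class: the unnamed cluster 11 had 1613 CPM from 48 UMIs in 20 barcodes of TRAIL+ naive, 92.3% (81.5 to 97.9) of its aldolase UMIs. The best-matching marker list of cluster 11 was that of astrocytes, with 4 markers among its top 100 genes, short of the 5 needed for the name. Oligodendrocyte-like barcodes of TRAIL- EAE also had more, with 296 CPM of Aldoc (188 to 444) against 16.0 (1.94 to 57.7) in TRAIL- naive. The EAE value rested on 23 UMIs in 7 of 35 barcodes, with 10 UMIs in 1 of them, and only 2.86% of barcodes kept a UMI after thinning. Summed astrocyte markers in these barcodes were 939 CPM in TRAIL- EAE and 456 in TRAIL- naive, and their part in the difference was not tested.

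Aldoa, the general aldolase, was present in every class. Choroid plexus-like barcodes had the highest levels, 795 (704 to 896) CPM in TRAIL- naive and 835 (699.8 to 988) in TRAIL- EAE. Monocyte-like barcodes had 696 (614 to 786) in TRAIL+ EAE and 469 (415 to 527) in TRAIL- EAE, and pericyte-like barcodes 466 (403 to 536) and 383 (329 to 443) in TRAIL- naive and TRAIL- EAE. The pericyte-like intervals overlapped that of monocyte-like barcodes of TRAIL- EAE, and both choroid plexus-like intervals overlapped that of monocyte-like barcodes of TRAIL+ EAE. Astrocyte-like barcodes had 313 (202 to 462) and 315 (242 to 403) CPM in TRAIL- and TRAIL+ naive, and endothelial-like barcodes 146 (124 to 170.1) and 164 (132 to 202) in TRAIL- naive and TRAIL- EAE. Microglia-like barcodes were at 109.9, 124, 125 and 129 CPM, with intervals that overlapped each other and those of these endothelial-like barcodes.

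Aldoc therefore made up 93.2% (90.2 to 95.6) of Aldoa plus Aldoc UMIs in the astrocyte-like barcodes of TRAIL- naive and 94.5% (93.0 to 95.8) in those of TRAIL+ naive. In microglia-like barcodes the share was 8.47% (2.81 to 18.7), 11.5% (8.65 to 14.9), 2.63% (0.320 to 9.18) and 4.6% (2.83 to 7.01) in the 4 libraries. In TRAIL- naive it was 2.44% (0.668 to 6.13) in endothelial-like, 1.01% (0.123 to 3.60) in pericyte-like and 4.90% (2.70 to 8.08) in choroid plexus-like barcodes. The astrocyte-like intervals lay above all of these. Over whole libraries the Aldoc share was 34.0%, 69.9%, 8.34% and 15.7%, and astrocyte-like barcodes carried 89.1%, 91.3%, 25.0% and 74.0% of the Aldoc UMIs.

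The Aldoa column has a near copy. Aldoart1, a related aldolase gene on chr4:72850583-72852634 (minus strand), was 91.8% identical to Aldoa over 501 bases of the transcript end and had 961 UMIs beside the 2759 of Aldoa, at 0.344, 0.359, 0.343 and 0.352 of the Aldoa count in the 4 libraries. Adding it to Aldoa moved the Aldoc share to 92.2% and 92.7% in the naive astrocyte-like barcodes and to 8.62% in the microglia-like barcodes of TRAIL+ naive.

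**Figure D3:**
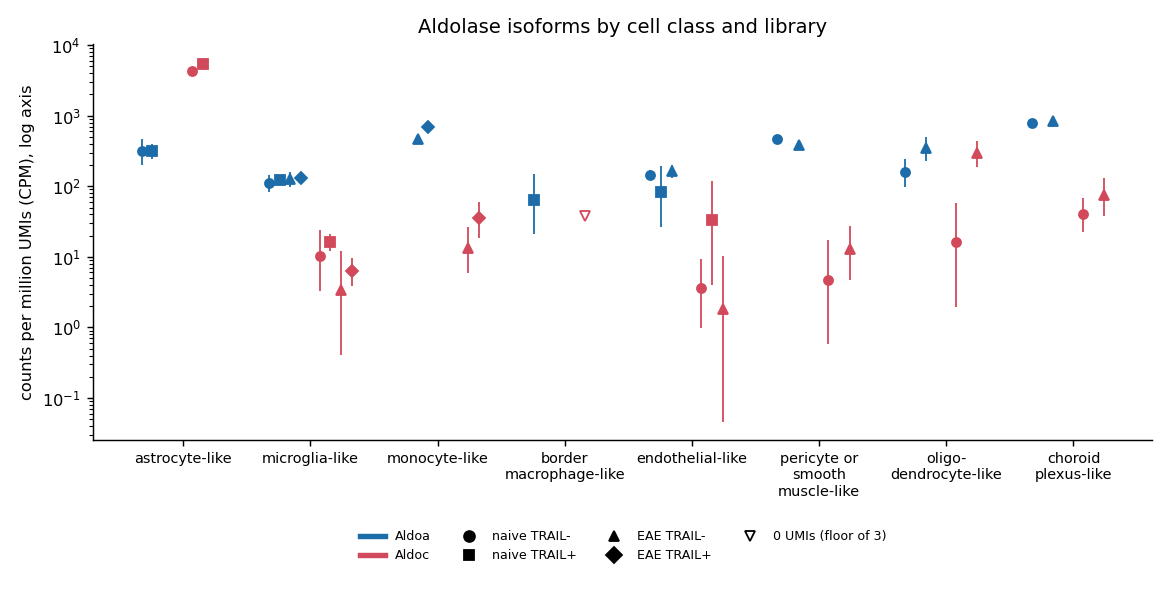
Levels of Aldoa (blue) and Aldoc (red) in CPM on a log axis by class, with 1 point per library (symbol) and exact 95% Poisson bars for classes of at least 30 barcodes, and open triangles at the floor of 3 UMIs where no UMI was found. Aldoc lies above Aldoa in the astrocyte-like class, at 4315 and 5436 CPM, and below Aldoa in every other class drawn.

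Tpi1, which interconverts the triose phosphates, stood at 596 (535 to 661) and 491 (422 to 568) CPM in monocyte-like barcodes of TRAIL- and TRAIL+ EAE and at 383 (320.3 to 455) and 427 (332 to 539.9) in choroid plexus-like barcodes of TRAIL- naive and TRAIL- EAE. Astrocyte-like barcodes had 213 (124 to 340.4) and 285 (216 to 369.6) in TRAIL- and TRAIL+ naive. Microglia-like barcodes were lower, at 57.0, 93.6, 100.0 and 87.3 CPM in the 4 libraries. Spsb2 matched the end of Tpi1 over 145 bases and had 252 UMIs beside the 1901 of Tpi1.

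Gapdh, the dehydrogenase often used as a reference gene, has a near-identical column. The column Gm3839, on chr14:11280735-11356726 (minus strand), was 99.0% identical to the end of Gapdh over 502 bases and held 5345 UMIs against 1919 of Gapdh. How reads that match both were assigned is unknown here, so the level of Gapdh alone is uncertain. On its own, Gapdh stood at 518 (462 to 579) and 601 (525 to 686) CPM in monocyte-like barcodes of TRAIL- and TRAIL+ EAE, 371 (309.6 to 442) and 544 (436 to 670.3) in choroid plexus-like and 46.4 (34.6 to 61.1) and 115 (88.5 to 147) in endothelial-like barcodes of TRAIL- naive and TRAIL- EAE. The sum of both columns was 1762 and 2058 CPM in these monocyte-like barcodes, 901 and 906 in astrocyte-like barcodes of TRAIL- and TRAIL+ naive, 211 and 339.8 in these endothelial-like barcodes, and 283, 336, 636 and 439 in microglia-like barcodes of the 4 libraries.

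Pgk1, which makes the first ATP of the pathway, was at 1117 (1008 to 1235) and 828 (694 to 981) CPM in choroid plexus-like barcodes of TRAIL- naive and TRAIL- EAE, and at 751 (683 to 825) and 663 (583 to 752) in monocyte-like barcodes of TRAIL- and TRAIL+ EAE. Other classes were several-fold lower: 188 and 240.3 CPM in naive astrocyte-like barcodes, 67.4 and 96.8 in endothelial-like and 57.0 and 83.0 in pericyte-like barcodes of TRAIL- naive and TRAIL- EAE, and 59.0, 63.7, 134 and 78.3 in microglia-like barcodes of the 4 libraries. None of these intervals met those of the choroid plexus-like or monocyte-like barcodes.

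Pkm, whose product makes pyruvate and the last ATP, had the highest count of the 10 columns in monocyte-like barcodes, though below the sum of Gapdh and Gm3839 given above, at 1354 (1262 to 1451) CPM in TRAIL- EAE and 1011 (912 to 1119) in TRAIL+ EAE. Choroid plexus-like barcodes had 1082 (975 to 1198) and 1156 (996 to 1334) in TRAIL- naive and TRAIL- EAE, pericyte-like barcodes 568 and 526 and endothelial-like barcodes 337 and 301. Astrocyte-like barcodes of TRAIL- and TRAIL+ naive had 338 and 425 CPM, and microglia-like barcodes of the 4 libraries 175, 211, 286 and 225. Among these, the EAE monocyte-like and the choroid plexus-like levels were the high ones.

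Ldha, the lactate dehydrogenase subunit of glycolytic tissue, was at 846 (774 to 924) and 650.0 (571 to 737) CPM in monocyte-like barcodes of TRAIL- and TRAIL+ EAE. It was the most abundant of the 10 genes in endothelial-like barcodes, at 446 (408 to 487) in TRAIL- naive and 526 (467 to 591) in TRAIL- EAE. Choroid plexus-like barcodes of these libraries had 322 and 469.8 CPM, astrocyte-like barcodes of TRAIL- and TRAIL+ naive 313 and 250.3, and microglia-like barcodes of the 4 libraries 85.5, 117, 214 and 191. Ldhb, the subunit of oxidative tissue, made up 3.10% and 6.23% of Ldha plus Ldhb UMIs in these monocyte-like barcodes, 3.54% and 3.03% in these endothelial-like barcodes, 71.2%, 69.5%, 57.4% and 57.8% in microglia-like barcodes, and 79.4% in choroid plexus-like barcodes of TRAIL- naive. Ldha was thus the main subunit in monocyte-like and endothelial-like barcodes, and Ldhb in microglia-like and choroid plexus-like barcodes.

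Summed over the 10 genes, astrocyte-like barcodes had 6029 and 7343 CPM in TRAIL- and TRAIL+ naive, and 1714 and 1907 CPM without Aldoc. Monocyte-like barcodes had 5418 and 4669 CPM in TRAIL- and TRAIL+ EAE, and choroid plexus-like barcodes 4568 and 4872 in TRAIL- naive and TRAIL- EAE. Microglia-like barcodes had 1083, 1269, 1581 and 1467 CPM, and in TRAIL- naive and TRAIL- EAE endothelial-like barcodes had 1267 and 1427 and pericyte-like barcodes 1803 and 1718. Among these sums, those of choroid plexus-like and EAE monocyte-like barcodes were the highest once Aldoc was set aside. The 19 and 21 monocyte-like barcodes of TRAIL- and TRAIL+ naive had lower sums without Aldoc, at 2011 and 1440 CPM.

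Classes of 1 library were then compared gene by gene. A gene entered where its mean over both sums was at least 50 CPM, and a ratio of at least 1.5-fold was called. Within TRAIL- EAE, 7 of 8 entered members were higher in monocyte-like than in microglia-like barcodes and none was lower, against 27.9% of 3273 genes higher, 25.6% lower and 53.5% in either direction. The median member ratio was 4.33. The largest ratios were 16.3 for Pfkp (8.63 to 34.6), 5.96 for Tpi1 (4.51 to 7.99), 5.61 for Pgk1 (4.41 to 7.22) and 4.73 for Pkm (4.0 to 5.61). Hk2 was the exception, at 0.966 (0.821 to 1.14).

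In TRAIL+ EAE the same 7 members were higher in monocyte-like barcodes, and Hk2 was 1.95-fold lower (1.61 to 2.37), against 27% of 3312 genes higher, 25.6% lower and 52.6% in either direction. Pfkp was 22.8-fold (13.7 to 39.1), Pgk1 8.48-fold (7.08 to 10.1) and Aldoa 5.38-fold (4.58 to 6.30) higher. Summed microglia markers in the monocyte-like barcodes were 2832 CPM in TRAIL- EAE and 10680 in TRAIL+ EAE, where 15 of 15 had UMIs, and their part in the ratios was not tested. Median depth was 2700 and 2755 UMIs in the monocyte-like and 1916 and 1900 in the microglia-like barcodes of these libraries.

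In TRAIL+ naive, 7 of 8 entered members were higher in astrocyte-like than in microglia-like barcodes and 1 was lower, against 38.2% of 3730 genes higher, 33.5% lower and 71.7% in either direction. Aldoc was 338-fold higher (254 to 458), Pgk1 3.77-fold, Tpi1 3.05-fold, Aldoa 2.55-fold, Ldha 2.13-fold, Gapdh 2.11-fold and Pkm 2.02-fold. Hk2 was 5.56-fold lower (3.55 to 9.26). With TMM or median-of-ratios scaling factors, which moved the median log2 ratio of all genes from 0.09 to -0.79 and -0.81, 3 members (Aldoc, Tpi1 and Pgk1) were called higher and 1 lower. Pfkp had a ratio of 17.8 (8.13 to 39.3) but a mean under 50 CPM, and did not enter.

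Choroid plexus-like barcodes, from the epithelium that makes cerebrospinal fluid, exceeded endothelial-like barcodes of TRAIL- naive in 7 of 8 entered members, with none called lower, against 37.7% of 3804 genes higher, 37.3% lower and 74.9% in either direction. Pgk1 was 16.6-fold (12.9 to 21.6), Gapdh 8.0-fold (5.74 to 11.3), Pfkp 7.07-fold (4.68 to 10.9), Aldoa 5.46-fold (4.48 to 6.68) and Hk1 3.79-fold (2.70 to 5.33) higher. Ldha did not follow, at 0.721 (0.581 to 0.888). Median depth was 3200.5 UMIs in choroid plexus-like and 894 in endothelial-like barcodes.

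**Figure D4:**
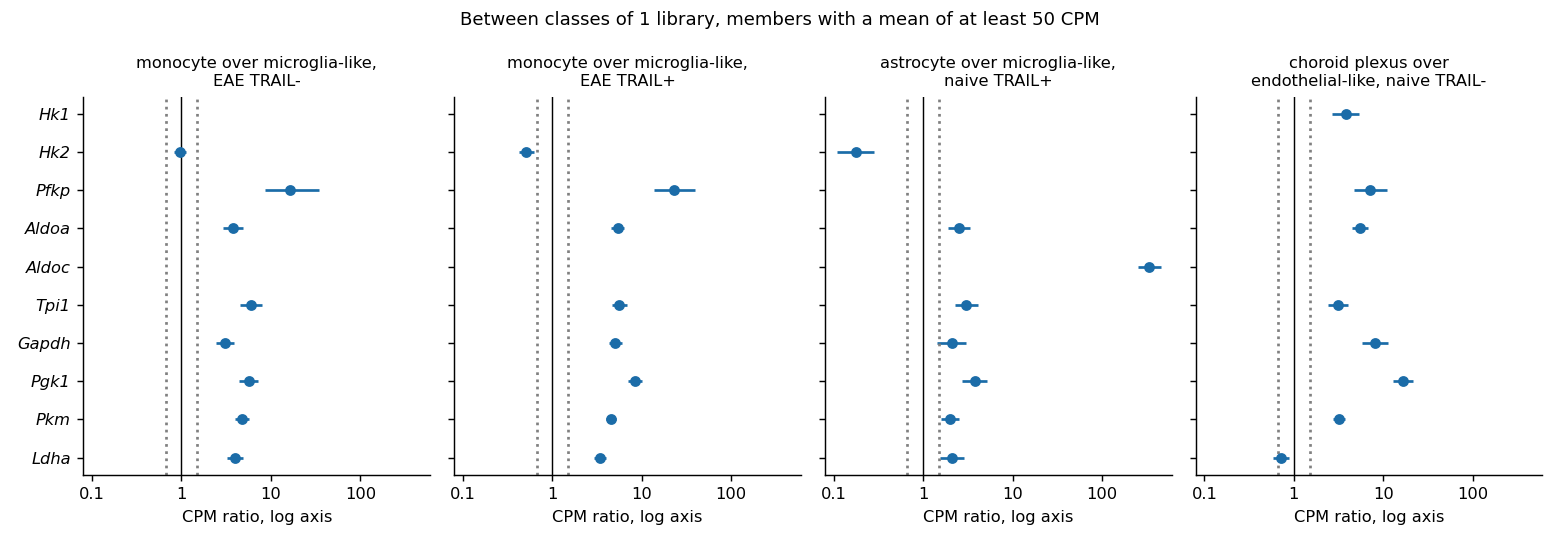
CPM ratios between classes of 1 library on a log axis with exact 95% intervals, for the members that entered each comparison; the solid line marks 1 and the dotted lines 1.5-fold in each direction. In both monocyte over microglia-like panels 7 members lie above 3 while Hk2 lies at 0.966 and 0.513, and Aldoc lies at 338 in the astrocyte over microglia-like panel.

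Endothelial-like barcodes had lower levels than pericyte-like barcodes in 4 of 7 entered members of TRAIL- naive, none higher, against 26.5% of 4072 genes higher, 32.2% lower and 58.6% in either direction. Aldoa was 3.20-fold (2.58 to 3.96), Gapdh 2.61-fold (1.73 to 3.92), Pkm 1.69-fold (1.43 to 1.99) and Tpi1 1.53-fold (1.14 to 2.03) lower. With TMM or median-of-ratios factors the split was 3 higher (Hk1, Pgk1, Ldha) and 2 lower (Aldoa, Gapdh). In TRAIL- EAE, Aldoa was 2.33-fold (1.80 to 3.04) and Pkm 1.74-fold (1.43 to 2.14) lower and Ldha 1.62-fold (1.32 to 1.98) higher in endothelial-like barcodes, against 27.8% of 3941 genes higher, 32.9% lower and 60.6% in either direction. Gapdh on its own was not called there, but its sum with Gm3839 was 1.54-fold (1.27 to 1.87) lower.

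Disease was compared within a class and a sort fraction. In TRAIL+ microglia-like barcodes, 1 of 7 entered members was called between EAE and naive, against 8.52% of 3205 genes higher, 5.71% lower and 14.2% in either direction. Ldha was 1.63-fold higher (1.43 to 1.86), at 191 CPM in EAE and 117 in naive. Gapdh had a ratio of 1.47 (1.25 to 1.73), Pgk1 1.23 (1.02 to 1.49) and Hk2 1.14 (1.07 to 1.22), none of them past 1.5-fold. With Gm3839 added, the Gapdh ratio was 1.31 (1.21 to 1.42). Aldoa (1.04), Pkm (1.07) and Tpi1 (0.933) had intervals that covered 1.

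TRAIL- microglia-like barcodes gave a larger number. Of the 7 entered members, 5 were higher in EAE and none lower, against 19.2% of 3261 genes higher, 21.6% lower and 40.8% in either direction, and the median member ratio was 1.75. Ldha rose from 85.5 to 214 CPM (2.50-fold, 1.75 to 3.63), and Pgk1 from 59.0 to 134 (2.27-fold, 1.46 to 3.60). Gapdh rose from 81.4 to 171 (2.10-fold, 1.44 to 3.11, and 2.25-fold with Gm3839), Tpi1 from 57.0 to 100.0 (1.75-fold, 1.10 to 2.86) and Pkm from 175 to 286 (1.64-fold, 1.25 to 2.15). Hk2 (1.12, interval 0.945 to 1.34) and Aldoa (1.14, 0.792 to 1.65) were not called. Whether the TRAIL- and TRAIL+ differences between EAE and naive differ from each other was not tested.

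The microglia-like class was made of different clusters in naive and EAE mice. Cluster 1, led by genes of antigen presentation and inflammation such as Cd74, H2-Eb1 and Ccl3, held 182 of the 295 barcodes in TRAIL- EAE and 658 of 1577 in TRAIL+ EAE, but 3 and 29 in TRAIL- and TRAIL+ naive. It had 12 microglia markers among its top 100 genes and 0 among its top 10, against 15 and 3 in cluster 2 and 14 and 1 in cluster 6. Its name is thus the weakest of these clusters. Without cluster 1, 113 barcodes were left in TRAIL- EAE, with Gapdh (1.81), Pgk1 (2.84) and Ldha (1.84) called higher, Aldoa called lower (0.462) and Tpi1 (1.16) and Pkm (1.22) not called. In TRAIL+ the Ldha ratio without cluster 1 was 1.41, so no member was called. In cluster 2 alone Ldha was at 62.9 CPM in TRAIL- naive and 198 in TRAIL- EAE, and Pgk1 at 55.5 and 177. In cluster 6 Ldha was at 115 and 121 and Pgk1 at 64.7 and 162.

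Other marker lists moved with this comparison. Summed monocyte markers in the microglia-like barcodes were 309 CPM in TRAIL- naive, 465 in TRAIL+ naive, 824 in TRAIL- EAE and 636 in TRAIL+ EAE. When barcodes with under 1% microglia marker UMIs were left out (306 kept in TRAIL- naive and 266 in TRAIL- EAE), the same 5 members were called, with Ldha at 2.41 and Pgk1 at 2.05. When the doublet calls were kept in, or clusters were cut more finely at resolution 2, 97 and 134 barcodes of TRAIL- EAE had the microglia-like name. Pgk1 in the first case, and Gapdh and Pgk1 in the second, were then the members called higher, and Aldoa was called lower in both (0.388 and 0.40).

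**Figure D5:**
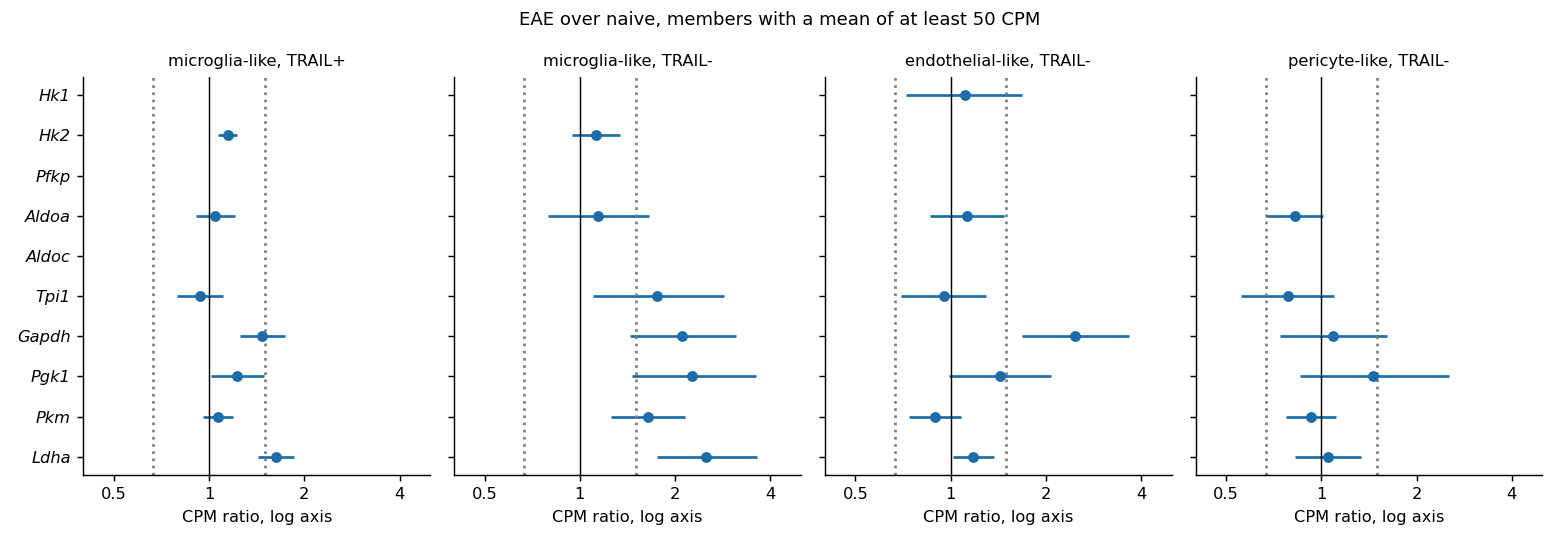
CPM ratios of EAE over naive on a log axis with exact 95% intervals, for the members that entered in microglia-like (TRAIL+ and TRAIL-), endothelial-like and pericyte-like barcodes (TRAIL-); dotted lines mark 1.5-fold in each direction. The 5 called members of the TRAIL- microglia-like panel lie between 1.64 and 2.50, and the pericyte-like panel has none past a dotted line.

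In endothelial-like barcodes of the TRAIL- fraction, Gapdh alone of 7 entered members was called, rising from 46.4 to 115 CPM (2.48-fold, 1.69 to 3.66), against 9.34% of 3641 genes higher, 12.3% lower and 21.6% in either direction. With the near-identical Gm3839 column added, the ratio was 1.61 (1.32 to 1.96). Ldha (1.18, interval 1.02 to 1.37) and Pgk1 (1.44, 0.991 to 2.07) did not reach 1.5-fold. In pericyte-like barcodes none of 6 entered members was called, against 10.5% of 3843 genes higher, 13.2% lower and 23.7% in either direction, and member ratios ran from 0.782 (Tpi1, 0.558 to 1.09) to 1.46 (Pgk1, 0.854 to 2.53).

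The sort fractions were compared within microglia-like and monocyte-like barcodes. In EAE, microglia-like Pgk1 was 1.71-fold lower in TRAIL+ than in TRAIL- (1.31 to 2.21) and the other 6 entered members were within 1.5-fold, against 6.61% of 3222 genes higher, 8.44% lower and 15.1% in either direction. In naive mice, microglia-like Tpi1 was 1.64-fold higher in TRAIL+ (1.11 to 2.52), alone of 7, against 3.3% of 3186 genes higher, 6.62% lower and 9.92% in either direction. In monocyte-like barcodes, Pfkp (1.76-fold, 1.30 to 2.42), Hk1 (1.66-fold, 0.978 to 2.94) and Hk2 (1.63-fold, 1.31 to 2.03) were lower in TRAIL+ EAE than in TRAIL- EAE, and none of 9 entered members was called higher, against 14.8% of 3163 genes higher, 17.7% lower and 32.5% in either direction. The summed monocyte markers of this class were 23110 CPM in TRAIL- EAE and 16255 in TRAIL+ EAE, while its microglia markers were higher in TRAIL+ as given above, and their part in these values was not tested.

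The other genes of the pathway came from lists of 53 genes around the 10 enzymes. In TRAIL- microglia-like barcodes, 5 of 19 entered were higher in EAE and 2 lower, against 19.2% and 21.6% of all genes. Hif1a, the hypoxia-inducible factor subunit, went from 65.1 to 276 CPM (4.24-fold, 2.89 to 6.40), and Pfkfb3 (an activator of phosphofructokinase) was 1.77-fold, Eno1 (enolase) 1.66-fold, Gpi1 (glucose-6-phosphate isomerase) 1.61-fold and Taldo1 (transaldolase) 1.58-fold higher. Slc2a5, the fructose transporter of microglia, was 1.76-fold (1.27 to 2.45) lower and G6pdx (glucose-6-phosphate dehydrogenase) 1.55-fold (0.881 to 2.76) lower. These ratios were not computed without cluster 1 or under the other alternatives. The different cluster make-up of this class in naive and EAE mice, given above, applies to them too. In TRAIL+ microglia-like barcodes 1 of 19 entered was called, Tkt (transketolase), 1.81-fold (1.49 to 2.20) higher, against 8.52% and 5.71% of all genes higher and lower. In TRAIL- endothelial-like barcodes, 3 of 13 entered were higher in EAE and none lower, against 9.34% and 12.3% of all genes. They were Hif1a, Pdhb (pyruvate entry) and Pgm2 (glycogen). In TRAIL- pericyte-like barcodes, 4 of 18 were higher and 1 lower, against 10.5% and 13.2%. Those higher were Gpi1, Hif1a, Dlat (pyruvate entry) and Pgls (pentose phosphate), and Pfkl was lower. Hif1a was among those higher in endothelial-like (89.2 to 159 CPM, 1.78-fold (1.32 to 2.4)) and pericyte-like barcodes (59.4 to 117 CPM, 1.97-fold (1.21 to 3.30)). Between sort fractions of naive microglia-like barcodes, Hif1a was called higher in TRAIL+ and Pdhb and Tkt lower, of 18 entered. Of all genes, 3.3% were higher and 6.62% lower. In EAE microglia-like barcodes, Slc2a5 was called higher in TRAIL+ and Hif1a lower, of 18 entered, against 6.61% and 8.44% of all genes. In EAE monocyte-like barcodes, Mpc2 (pyruvate entry) was higher in TRAIL+, and Hif1a, Pfkfb3, Taldo1 and the hexokinase Hk3 were lower, of 18 entered. Of all genes, 14.8% and 17.7% were higher and lower.

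Between classes, 13 of 22 entered pathway genes were higher and 4 lower in monocyte-like than in microglia-like barcodes of TRAIL- EAE, and 14 and 3 of 21 in TRAIL+ EAE. Of all genes, 27.9% and 25.6% were higher and lower in the former and 27% and 25.6% in the latter. Slc16a3, the lactate exporter MCT4, was 7.88-fold (4.88 to 13.5) and 7.62-fold (5.41 to 10.7) higher in these libraries, Eno1 4.42-fold and 7.08-fold, Pgam1 (phosphoglycerate mutase) 5.31-fold and 4.10-fold, and Hk3, a further hexokinase of blood cells, 3.80-fold and 1.99-fold. Ldhb was 10.6-fold and 6.05-fold lower. In astrocyte-like against microglia-like barcodes of TRAIL+ naive, 14 of 23 entered were higher and 4 lower, among the former the glycogen phosphorylases Pygb (686 against 38.9 CPM) and Pygm (125 against 1.61 CPM, from 5 UMIs in microglia-like barcodes). The shares over all genes there were 38.2% and 33.5%.

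Glucose and lactate carriers were high in endothelial-like barcodes. Slc2a1, the glucose carrier GLUT1 of the blood-brain barrier, stood at 3184 CPM in TRAIL- naive and 4249.9 in TRAIL- EAE, against 49.9 and 57.5 in pericyte-like barcodes, ratios of 63.8 (41.7 to 103) and 74.0 (50.7 to 112). Slc16a1, the lactate carrier MCT1, was at 928 and 658 CPM against 30.9 and 14.9. In TRAIL- naive, 4 of 15 entered pathway genes were higher and 5 lower in endothelial-like than in pericyte-like barcodes, close to the 26.5% and 32.2% of all genes.

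By Pearson correlation of log2(CPM + 1) over 16 class-by-library sums of at least 50 barcodes, among 3960 genes, those most like Aldoc were Gpr37l1 (r = 0.88), Cspg5 (0.85), Ptprz1 (0.82) and Bcan (0.81). Those most like Hk2 were Ctss (0.98), Mpeg1 (0.98), Ly86 (0.98) and Il21r (0.98). Aldoa came closest to its near copy Aldoart1 (0.99), then Esd (0.90), Atp5d (0.89) and Sec61g (0.89), and Hk1 to Vdac3 (0.88), Aurkaip1 (0.85), Chp1 (0.83) and Hdgf (0.83). The sums share libraries and differ in depth, only 1 of the 16 is astrocyte-like and 4 are microglia-like, so these values describe the pattern of the classes and carry no p-value.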

How the data were processed

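Whole central nervous systems were dissociated with papain, sorted and run on inDrops v3, per the labels' protocols. The authors deposited 1 table of UMI counts per library (41862 genes, no normalization, barcodes of at least 100 UMIs); per the submitters' processing notes, Bowtie and GRCm38 were used, with the versions, the annotation and the treatment of reads that match several genes not given in the sources used here. Total counts were 3109387, 3967680, 2856696 and 3984975 UMIs (TRAIL- naive, TRAIL+ naive, TRAIL- EAE, TRAIL+ EAE).

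Barcodes with at least 500 UMIs and at most 20% mitochondrial UMIs were kept, and Scrublet calls per library (77 barcodes, 0.975%, expected rate 5%) were removed. Counts scaled to 10000 per barcode and log-transformed were clustered over all libraries (scanpy 1.11.5, leidenalg 0.10.2, 2000 variable genes, 30 components, 15 neighbours, Leiden resolution 1, 16 clusters) without the 10 members, 53 other pathway genes and mitochondrial genes. A cluster took the name of a marker list (17 lists) with at least 3 markers among its top 100 genes (5 where fewer than 2 were in the top 10), ranked by the fold over the median of the other clusters among genes in at least 20% of its barcodes, with no other list holding more of the top 10. That reference was chosen after seeing that the mean of the rest left EAE microglial and arterial endothelial clusters unnamed. Class names are rebuilt and can differ from the authors' own.

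Counts were summed per class and library and given as CPM with exact intervals (Python 3.11.15, scipy 1.17.1). The floor for a count of 0 is 3 UMIs. Fold changes are ratios of CPM, called at 1.5-fold among genes whose mean reached 50 CPM. No count model was fitted, since each group has 1 library. The ratio step was tested on simulated Poisson counts drawn from microglia-like sums. These hold no spread between barcodes, mice or libraries, so they bear on the calculation only. All members are named, pathway genes only where called, and 4 genes by likeness for each of Aldoc, Aldoa, Hk1 and Hk2. The members and lists were chosen with earlier results of these data known. Near copies were searched with BLAST 2.17.0 over the last 500 transcript bases (at least 90% identity over at least 60 bases). Alternatives were other barcode filters, doublet treatment, clustering, scaling (edgeR 4.0.16 TMM in R 4.3.3, median of ratios), CPM minimum and fold.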

Additional observations from a re-analysis of the deposited data

Results flagged for a closer look

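Values outside the compared classes were looked at because an unnamed cluster held at least 20 barcodes of a library, or because a column was no member but near-identical to one. Cluster 11, unnamed and led by Fabp7, Npy and Frzb, held 20 barcodes of TRAIL+ naive, where Aldoc stood at 1613 CPM (48 UMIs) and Aldoa at 134 CPM (4 UMIs). Cluster 7, unnamed and led by Hba-a2 and Bcl2a1b, held 50 barcodes of TRAIL+ EAE, where Hk2 stood at 583 CPM (37 UMIs) and Aldoa at 63.1 CPM (4 UMIs). Its best-matching marker list was that of microglia, with 14 markers among its top 100 genes and 0 among its top 10. The erythroid list held more of that top 10 (Hba-a2 and Hbb-bs), so cluster 7 took no name. The column Gm3839, near-identical to Gapdh at the transcript end, stood at 389 CPM over all used barcodes of TRAIL- naive, 297 of TRAIL+ naive, 642 of TRAIL- EAE and 435 of TRAIL+ EAE.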

How the results depend on the processing

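No paired analysis was possible because each group has 1 library. Of 251 shares under an alternative, 238 moved by less than their counting interval; of 366 counts of members, 308 stayed within 1.5 times; of 1351 single-member ratios, 1252 stayed, 98 left their interval and 1 that had been called changed direction. That 1 was Tpi1 in TRAIL- microglia-like barcodes, EAE over naive, at 0.958 with Leiden resolution 2. Part of the 1252 ratios could not move. A 2-fold limit or no CPM minimum leaves a ratio as it is, and adding the copies alters only Gapdh and Aldoa. Ratios that were not called could cross 1 and are counted by their size alone: Aldoa in the same comparison was 0.388 with doublet calls kept, 0.40 at resolution 2 and 0.462 without cluster 1. The cause was not tested here or for the values below. The alternatives on copies, clusters and markers (near copies added, cluster 1 left out, barcodes under 1% microglia markers left out) were chosen after seeing the data.

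The Aldoc share of aldolase UMIs was 92.7% in astrocyte-like and 8.62% in microglia-like barcodes of TRAIL+ naive with the copies added. In microglia-like barcodes of TRAIL- EAE it was 22.2% with doublet calls kept, 16.7% at resolution 2 and 16.7% without cluster 1. In TRAIL- EAE, with at least 1000 UMIs or at most 10% mitochondrial UMIs, it was 0 and 0% in endothelial-like and 0.885% and 0.645% in pericyte-like barcodes. The Hk2 share was 96.3% in microglia-like barcodes of TRAIL- EAE without cluster 1, 15.4% in pericyte-like barcodes of TRAIL- EAE without barcodes richer in another class's markers, and 25.0% (doublet calls kept) or 0% (at most 10% mitochondrial UMIs) in those of TRAIL- naive.

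Counts of members called higher moved as follows. With TMM or median-of-ratios factors, 3 and 3 were higher in astrocyte-like over microglia-like barcodes, 2 and 2 (EAE) and 3 and 3 (naive) in endothelial-like over pericyte-like, and 2 and 2 in microglia-like TRAIL+ over TRAIL- naive. With TMM, 0 were higher in TRAIL+ microglia-like EAE over naive, and with median of ratios 1 in pericyte-like EAE over naive. With doublet calls kept or at resolution 2, microglia-like EAE over naive had 0 and 0 in TRAIL+ and 1 and 2 in TRAIL-, while TRAIL+ over TRAIL- had 1 and 1 in EAE and 0 and 0 in naive. With pathway genes among the variable genes, the last was 0. Without cluster 1, EAE over naive had 0 in TRAIL+ and 3 in TRAIL-, and TRAIL+ over TRAIL- in EAE had 1. At 2-fold, the counts were 0 for TRAIL+ and 3 for TRAIL- microglia-like EAE over naive, 0 for TRAIL+ over TRAIL- naive, and 0 for endothelial-like over pericyte-like in EAE. With no CPM minimum they were 2 (endothelial-like EAE over naive), 1 (endothelial-like over pericyte-like, naive), 2, 2 and 3 (microglia-like TRAIL+ over TRAIL- EAE, EAE over naive in TRAIL+, and TRAIL+ over TRAIL- naive), 1 (monocyte-like) and 2 (pericyte-like EAE over naive). Monocyte-like TRAIL+ over TRAIL- had 1 with doublet calls kept and 1 without barcodes richer in other markers, which also gave 1 in pericyte-like EAE over naive.

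Counts called lower were 1 and 1 (choroid plexus-like over endothelial-like), 2 and 2 (endothelial-like over pericyte-like, naive) and 0 and 0 (microglia-like TRAIL+ over TRAIL- EAE) with TMM and median of ratios, and 1 with the latter in endothelial-like over pericyte-like EAE. With no CPM minimum they were 1 (choroid plexus-like over endothelial-like), 1 (endothelial-like EAE over naive), 4 (endothelial-like over pericyte-like EAE), 2, 1 and 2 (microglia-like TRAIL+ over TRAIL- EAE, and EAE over naive in TRAIL+ and TRAIL-). At 2-fold they were 1 and 2 (endothelial-like over pericyte-like, EAE and naive), 0 (microglia-like TRAIL+ over TRAIL- EAE), 0 (monocyte-like over microglia-like, TRAIL+ EAE) and 0 (monocyte-like TRAIL+ over TRAIL-). TRAIL- microglia-like EAE over naive had 1 with doublet calls kept, 1 at resolution 2 and 1 without cluster 1, and monocyte-like TRAIL+ over TRAIL- had 1 without barcodes richer in other markers. Few barcodes limit the astrocyte-like values: Hk1, Hk2 and Pfkp rest on few UMIs there, and no EAE comparison was made.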

Other observations

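In choroid plexus-like against endothelial-like barcodes of TRAIL- naive, 19 of 24 entered pathway genes beyond the 10 members were higher and 5 lower, where 37.7% of 3804 genes were higher and 37.3% lower. Ldhb, the lactate dehydrogenase subunit of oxidative tissue, was 75.5-fold higher (47.2 to 129), at 1237 CPM against 16.4. The carriers went the other way: Slc2a1, the glucose carrier GLUT1, was 49.5-fold lower (32.6 to 79.1), Slc16a1, the lactate carrier MCT1, 52.9-fold lower (24.2 to 144) and Bsg, the chaperone of the lactate carriers, 5.78-fold lower (5.23 to 6.41).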
